A study of Homo sapiens with 9 samples.

Results

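The comparison described here set MCF10A cells making deltaNp63beta against MCF10A cells making deltaNp63alpha, both after 24 h with 500 ng/mL doxycycline. It used 6 of the 9 RNA-seq libraries of the study, the 3 labelled deltaNp63beta and the 3 labelled deltaNp63alpha, and took in every gene that reached 10 in 3 or more of them. The other 3 libraries came from cells with the vector only, also given doxycycline, and served as a reference level that entered no test. All 9 are labelled as wild-type MCF10A, a non-tumorigenic human mammary epithelial line grown in medium with horse serum, epidermal growth factor, hydrocortisone, cholera toxin and insulin. The labels name no clone, promoter or integration site, and no library without doxycycline was used here. The groups are therefore cells with an induced human deltaNp63alpha, cells with an induced human deltaNp63beta and cells with the empty vector, and the agent common to all of them has no untreated counterpart in these values. The libraries are called the alpha, beta and vector libraries from here on. The series describes them as biological triplicates without saying whether they came from separate cultures or days. Each p-value therefore weighs a difference between groups against the spread between these libraries, which may not be that of separate cultures.

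TP63 encodes a transcription factor of the p53 family that specifies and maintains basal cells of stratified and glandular epithelia. Transcripts from the internal promoter lack the full N-terminal transactivation domain and give the deltaN forms, and splicing at the 3′ end gives different C-termini. The alpha form ends in a sterile alpha motif and an inhibitory domain, whereas the beta form lacks both and keeps the same DNA-binding and oligomerization domains. DeltaNp63alpha is the form found most widely in basal epithelial cells.

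The 6 alpha and beta libraries had summed normalized values of 22.7 to 23.2 M, and the step between their low values gave estimated depths of 22.3 to 24.2 M fragments. On the principal components of the 14638 genes tested, the first (52.9% of the variance) separated the alpha from the beta libraries. The next (13.7%) set beta replicate 1, at -40.26, apart from beta replicates 2 and 3, at 19.30 and 12.57. Transcripts encoded in mitochondria took between 3.50% and 3.89% of the values in these 6 libraries. All 10 basal mammary markers were detected in every library, and their summed value was 309320 to 334730 in the alpha, 394500 to 406730 in the beta and 185990 to 194950 in the vector libraries. Of the basal markers, KRT5, KRT14, KRT17, CDH3 and ITGA6 were called higher and LAMB3 and EGFR lower with beta, and without alpha replicate 1 the number lower was 4. Some defining genes of other cell types were at or near 0 in the alpha and beta libraries, and others were not. Near 0 were PTPRC, CD3E and MS4A1 of leukocytes, CDH5 and CLDN5 of endothelium and COL3A1 of fibroblasts. The 8 fibroblast markers summed to 7778 to 7911 in the alpha and 12511 to 13576 in the beta libraries. Of 5 tested, FBLN1, MFAP5 and COL1A1 were called higher and DCN lower. The 8 leukocyte markers summed to 1281 to 1641 in the alpha and 1241 to 1370 in the beta libraries, with CD14 and LAPTM5 called higher and ITGB2, CD68 and CSF1R lower of 5 tested. The 6 endothelial markers summed to 171 to 174 and 110.3 to 143, with KDR called lower (adjusted p = 0.0385) of 3 tested, a call lost on leaving out any 1 of the 6 libraries (adjusted p = 0.056 to 0.0998). The part of such cells in the results was not tested.

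TP63 itself did not separate the groups. Its values were 316, 332 and 259 in the vector libraries, 4426, 6983 and 6961 in the alpha libraries and 6719, 4183 and 4870 in the beta libraries. Both isoform groups were far above the vector libraries, and they overlapped each other. The difference between beta and alpha was -0.22 ± 0.24 on the log2 scale (SE, n = 3 against 3, 95% interval -0.79 to 0.35, limma adjusted p = 0.53). The values were compatible with any difference within that interval, so equal levels were not shown. The value per gene does not tell the isoforms from one another or from the cells' own TP63 transcripts, and protein was not measured in these libraries.

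Of the 14638 genes tested, 4619 (31.6%) passed the threshold of adjusted p under 0.05 in limma on log2(value + 1). A total of 2480 (16.9%) were higher and 2139 (14.6%) lower in the beta libraries, and the median log2 fold change over all genes tested was 0.005. Most differences were small. At least 2-fold differences were called for 399 genes higher (2.73%) and 369 lower (2.52%), and at least 8-fold differences for 47 higher and 16 lower. Tested against a 1.5-fold change instead of against no change, 226 genes were higher and 156 lower. Groups that did not overlap were found for 45.6% of all genes, 23.6% with beta above alpha and 22% with alpha above beta. The genes called higher made up 25.7% to 26.2% of the summed values in the alpha libraries, 33.3% to 33.7% in the beta libraries and 25.4% to 25.8% in the vector libraries. In bulk RNA, fewer cells of a kind and less RNA per cell cannot be told apart.

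**Figure D1:**
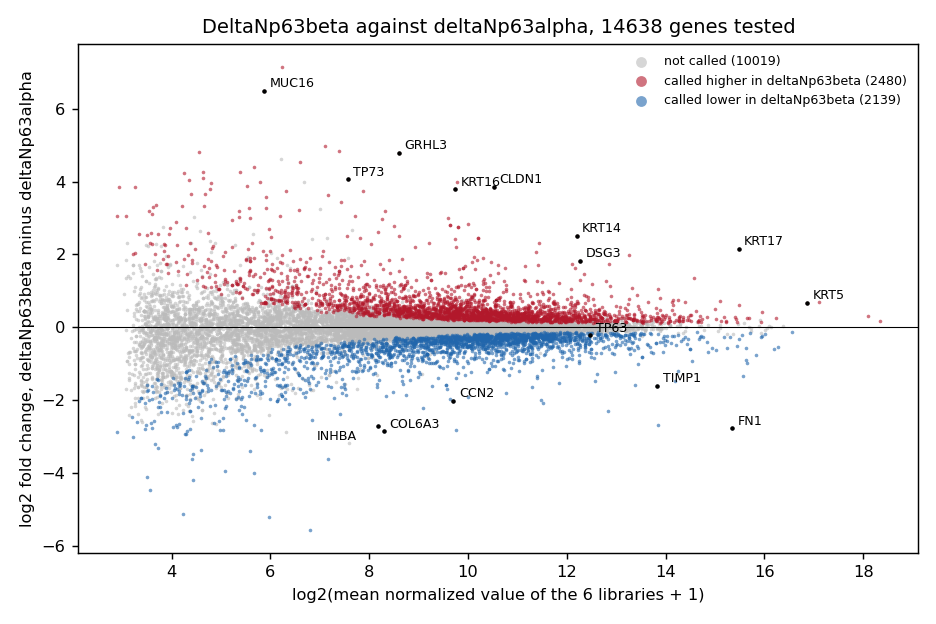
Each point is 1 of the 14638 genes tested, placed by the log2 of its mean normalized value over the 6 libraries plus 1 (x axis) and by its log2 fold change, deltaNp63beta minus deltaNp63alpha (y axis); red marks the 2480 genes called higher and blue the 2139 called lower. GRHL3, TP73, KRT16 and CLDN1 lie near or above 4 on the y axis, FN1 lies below -2 at a high level, and TP63 lies near 0.

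The genes with the largest differences upward were at or near the vector level with deltaNp63alpha and were raised with deltaNp63beta. The largest of all was TMEM265, listed at 0 in all alpha and vector libraries and at 183, 180.2 and 83.3 in the beta libraries. It overlaps 3 genes on the same strand, so its reads may belong in part to a neighbour. MUC16, a membrane mucin of wet epithelial surfaces, had values of 0.419, 0.4 and 0 in the alpha libraries and 145, 80.2 and 119 in the beta libraries. IGFL1, a secreted insulin-like growth factor family member of skin, had values of 7.92, 6.67 and 8.18 in the alpha libraries and 254, 296 and 252 in the beta libraries. In each of these genes every beta library was above every alpha library. Groups that did not overlap were a condition for naming them, and 23.6% of all genes tested had beta above alpha in this way. AKR1B10, an aldo-keto reductase, differed by 4.85 ± 0.25 (adjusted p = 2.34e-06), TRAF3IP3 by 4.53 ± 0.33 (adjusted p = 1.70e-05) and PRR15L by 4.41 ± 0.51 (adjusted p = 0.000258). KLK10, a secreted kallikrein protease, and SPRR1B, a small proline-rich precursor of the cornified envelope, had mean values of 3.37 ± 2.27 and 5.58 ± 1.42 in the alpha libraries and 78.1 ± 17.2 and 103 ± 14.6 in the beta libraries (SD, n = 3). MUC16, IGFL1, PRR15L, KLK10, SPRR1B and TMEM265 passed the minimum through the beta libraries alone, so a difference was built into their entry, as it was for 68 genes in all.

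The largest differences downward mixed low and very abundant genes. FN1, the matrix glycoprotein fibronectin, had values of 161019, 162782 and 159900 in the vector libraries, 72090, 74635 and 71600 in the alpha libraries and 10055, 10531 and 11422 in the beta libraries. The levels fell into 3 separate groups, with vector highest and beta lowest, and the log2 fold change from alpha to beta was -2.77 ± 0.05 (adjusted p = 1.34e-08). SEMA3B, a secreted semaphorin, had values of 1745, 1869 and 1727 in the vector libraries, 1412, 1589 and 1524 in the alpha libraries and 204, 216 and 220.1 in the beta libraries, again with the beta libraries far below both others. CHRNA9, a nicotinic receptor subunit, was at 579 ± 58.01 in the vector, 266 ± 50.6 in the alpha and 20.98 ± 5.11 in the beta libraries (mean ± SD, n = 3 each). COL6A3, a chain of collagen VI, was at 1601 ± 231, 553 ± 64.8 and 75.6 ± 7.84 in the same order. Smaller in level were MPO (-4.0 ± 0.48, adjusted p = 0.000314), GCNA (-3.40 ± 0.43, adjusted p = 0.000449), MYH16 (-2.81 ± 0.39, adjusted p = 0.000793) and SHISAL1 (-2.80 ± 0.36, adjusted p = 0.000501), the last of which passed the minimum through the alpha libraries alone. FOLR3, a folate-binding protein gene, differed by -2.82 ± 0.35 (adjusted p = 0.000378). Its alpha libraries (96.8 ± 24.6) were above both the vector (8.74 ± 2.75) and the beta libraries (13.2 ± 5.52). The lowest fold change belonged to DSEL, a dermatan sulfate epimerase-like gene. Its values were uneven, 435, 14.4 and 257 in the vector libraries, 233, 86.1 and 291 in the alpha libraries and 56.96, 0 and 0 in the beta libraries, and its call (-5.55 ± 1.62, adjusted p = 0.0418) was lost without alpha replicate 1, 2 or 3 or beta replicate 2 or 3 (adjusted p = 0.0591 to 0.128).

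Among abundant genes, with a mean of at least 2000 over the 6 libraries, the largest differences upward were in KRT14, SLPI, KRT17, NCOA7, DSG3 and MAL2, among others. Those downward were in FN1, ANGPTL4, AKAP12, PMEPA1, FOSL1, TIMP1 and ARF4, among others. All but 5 of those named (NCOA7, ANGPTL4, AKAP12, ARF4 and FN1) are taken up with their gene groups or, for FN1, above. NCOA7, a nuclear receptor coactivator, had values of 1039, 1048 and 1259 in the vector libraries, 1053, 1026 and 958 in the alpha libraries and 4512, 4142 and 4196 in the beta libraries, with only the beta libraries apart. ANGPTL4, a secreted inhibitor of lipoprotein lipase, had values of 10051, 10418 and 11129 in the vector libraries, 10927, 12488 and 12774 in the alpha libraries and 2302, 2539.5 and 2510.2 in the beta libraries, with the beta libraries far below. AKAP12, a kinase-anchoring scaffold, differed by -2.08 ± 0.06 (adjusted p = 6.79e-08), and ARF4, a small GTPase of vesicle traffic, by -1.57 ± 0.05 (adjusted p = 7.49e-08). The gene groups below are read against the 16.9% of all genes called higher and the 14.6% called lower.

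Transcription factors of the p63 family and of epithelial differentiation were called higher more often than lower with deltaNp63beta. Of 28 tested members of a list of 33, 14 were higher and 2 lower, with a median log2 fold change of 0.54, and 9 of the higher ones also passed the test against a 1.5-fold change. GRHL3, a grainyhead factor of the epidermal barrier, had values of 39.2, 23.5 and 25.8 in the vector libraries, 23.2, 24.5 and 30.6 in the alpha libraries and 751, 630.2 and 864 in the beta libraries. The vector and alpha libraries overlapped and every beta library was many times their level, a difference of 4.79 ± 0.17 (adjusted p = 2.54e-07). TP73, the p53-family paralog, had values of 42.8, 45.2 and 41.5 in the vector libraries, 14.8, 28.9 and 19.04 in the alpha libraries and 441, 308 and 319 in the beta libraries. The alpha libraries were the lowest of the groups and the beta libraries the highest, and beta and alpha differed by 4.06 ± 0.26 (adjusted p = 7.85e-06).

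EHF and ELF3, epithelial ETS factors, differed by 3.18 ± 0.15 and 3.04 ± 0.33 (adjusted p = 1.31e-06 and 0.000191). CEBPD, a C/EBP factor, differed by 1.71 ± 0.06 and KLF5, a factor of proliferating epithelium, by 0.78 ± 0.05 (adjusted p = 2.53e-07 and 8.44e-06). SOX9, PITX1, TFAP2A and GRHL1 were higher as well, with log2 fold changes from 0.32 to 1.29. ZNF750, a p63 target that drives terminal differentiation, was at 1.71 in the alpha and 46.2 in the beta libraries on average (adjusted p = 0.0014), and it passed the minimum through the beta libraries alone. OVOL1, a differentiation factor that represses mesenchymal genes, had values of 0, 10.3 and 2.98 in the alpha libraries and 7.38, 31.7 and 18.6 in the beta libraries and was not called (adjusted p = 0.0911), but was called without alpha replicate 2 (adjusted p = 0.0418). The members lower were KLF4 at -0.52 ± 0.13 (adjusted p = 0.0137) and TBX3 at -0.59 ± 0.11 (adjusted p = 0.00283). Not tested for low values were GRHL2, ELF5, SOX2, DLX3 and HOPX.

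Keratins of basal and activated keratinocytes were higher, apart from the KRT6A and KRT6C pair. All 8 listed were tested, and 6 were higher and none lower (median 1.02), with 1 lower without alpha replicate 1. KRT17 had values of 7029.5, 6545 and 6960.1 in the vector libraries, 15458, 17413 and 17258 in the alpha libraries and 78837, 72325 and 72348 in the beta libraries. KRT14, the partner of KRT5 in basal cells, had values of 447, 403 and 383 in the vector libraries, 1218, 1438 and 1494 in the alpha libraries and 9886, 6866 and 7275 in the beta libraries. KRT5 had values of 57839, 53800 and 54752 in the vector libraries, 94351, 93665 and 89777 in the alpha libraries and 149719, 143399 and 147812 in the beta libraries. All of these stood in the order vector, alpha, beta with no overlap, and the step from alpha to beta was 2.16 ± 0.06 for KRT17, 2.52 ± 0.13 for KRT14 and 0.67 ± 0.04 for KRT5 (adjusted p = 4.64e-08, 3.32e-06 and 2.94e-06). KRT16, a keratin of activated and wounded epidermis, had values of 193, 163 and 173 in the vector libraries, 128, 131 and 89.4 in the alpha libraries and 1629, 1591 and 1573 in the beta libraries, with the alpha libraries below the vector and the beta libraries above (adjusted p = 3.21e-07). KRT6B differed by 1.38 ± 0.11 and KRT15 by 0.46 ± 0.08 (adjusted p = 3.61e-05 and 0.00265). KRT6A was at -0.09 ± 0.04 and KRT6C at -0.09 ± 0.19 (adjusted p = 0.128 and 0.748). The KRT6 genes, and KRT14, KRT16 and KRT17, have near-identical copies, and how the reads were divided among them is uncertain.

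Other keratins gave few calls. KRT13, a suprabasal keratin of mucosa, was at 2.19 ± 1.91 in the alpha and 45.8 ± 14.8 in the beta libraries (mean ± SD; adjusted p = 0.00176) and passed through the beta libraries alone, and KRT80 was lower, at -0.97 ± 0.20 (adjusted p = 0.00522). KRT10 was at -0.08 ± 0.07 (adjusted p = 0.438). The other 7 suprabasal keratins listed, KRT1 and KRT4 among them, were too low to test. Of the simple-epithelium keratins, KRT8 was at 0.33 ± 0.05 (adjusted p = 0.00158), KRT18 at 0.19 ± 0.05, KRT7 at -0.17 ± 0.05 and KRT19 at -0.51 ± 0.51 (adjusted p = 0.478). The calls of KRT18 (adjusted p = 0.0174) and KRT7 (adjusted p = 0.021) were lost without alpha replicate 2 or 3 or beta replicate 2 (adjusted p = 0.0607 to 0.0766) and without alpha replicate 1 or 2 (adjusted p = 0.0654 to 0.0687), respectively. Both were also lost in the fit without trend and robust moderation (adjusted p = 0.0807 and 0.109). Under quantile normalization KRT7 was at -0.06 and not called (adjusted p = 0.552).

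Desmosome genes, which tie keratin filaments to the junctions between cells, were higher or not called. Of 10 tested of 14, 7 were higher and none lower (median 0.58), and 2 of the higher ones passed the test against a 1.5-fold change. DSG3, the desmosomal cadherin of basal layers, had values of 896, 1057 and 955 in the vector libraries, 2054, 2259 and 2162 in the alpha libraries and 7817, 7532 and 7706 in the beta libraries, in 3 separate steps, and differed by 1.83 ± 0.05 (adjusted p = 4.64e-08). PERP, a tetraspan desmosome protein and p63 target, differed by 1.05 ± 0.04, the plaque protein DSP by 0.70 ± 0.05, JUP by 0.61 ± 0.06 and DSC3 by 0.65 ± 0.07 (adjusted p = 2.57e-07, 1.58e-05, 9.04e-05 and 0.000177). DSG2, PKP3 and PKP4 had log2 fold changes of -0.06, 0.01 and 0.03 and were not called. DSG1, DSG4, DSC1 and PKP1 were too low to test.

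Adherens and tight junctions join and seal the cells of a sheet, and their genes were also called higher more often than lower. Of 25 tested of 28, 17 were higher and 2 lower, with a median of 0.83, and 9 of the higher ones passed the test against a 1.5-fold change. CLDN1, the claudin that seals the epidermis, had values of 218, 201 and 187 in the vector libraries, 220.2, 173 and 177 in the alpha libraries and 2796, 2690.1 and 2771 in the beta libraries. CLDN4 had values of 18.6, 29.9 and 40.7 in the vector libraries, 21.3, 23.8 and 16.6 in the alpha libraries and 274, 298 and 226 in the beta libraries. For both, vector and alpha overlapped and only the beta libraries stood apart, by 3.86 ± 0.10 for CLDN1 and 3.64 ± 0.21 for CLDN4 (adjusted p = 4.64e-08 and 4.24e-06). CLDN7 differed by 2.74 ± 0.07 (adjusted p = 4.64e-08), and its values equal those of another gene ID in every library, so its level may not be that of all its reads. CDH1, E-cadherin, had values of 652, 467 and 505 in the vector libraries, 1367, 1294 and 1177 in the alpha libraries and 3898, 4256 and 4309 in the beta libraries, a stepwise order with 1.70 ± 0.07 between alpha and beta (adjusted p = 4.88e-07). CDH3, the P-cadherin of basal cells, differed by 1.28 ± 0.05 (adjusted p = 3.29e-07). Occludin (OCLN) differed by 3.04 ± 0.28 and the junction plaque proteins TJP3 and CGN by 3.01 ± 0.46 and 1.84 ± 0.29 (adjusted p = 7.15e-05, 0.0012 and 0.00147). CTNNB1, CTNNA1 and TJP1 had log2 fold changes of 0.11, 0.09 and -0.23 and were not called. The 2 lower members were NECTIN3 (-0.47 ± 0.13, adjusted p = 0.0238) and CLDN12 (-0.25 ± 0.08, adjusted p = 0.0387), and these calls were lost without alpha replicate 1 or 3 or beta replicate 2 or 3 (adjusted p = 0.0676 to 0.0789) and without alpha replicate 1 or 3 or beta replicate 1 or 2 (adjusted p = 0.0635 to 0.121), respectively.

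Epithelial identity genes, a list of surface proteins, proteases and splicing factors, held the highest share of calls upward among the groups tested with 10 or more members. Of 15 tested of 20, 13 were higher and none lower (median 1.03), and 7 of the higher ones passed the test against a 1.5-fold change. MAL2 had values of 3546, 3324 and 3336 in the alpha libraries and 11462, 11024 and 11525 in the beta libraries and EPCAM of 345, 310.0 and 279 in the alpha libraries and 1339.8, 1495 and 1436 in the beta libraries. In both genes every beta library was well above every alpha library, by 1.74 ± 0.05 and 2.19 ± 0.09 (adjusted p = 4.64e-08 and 7.47e-07). ST14, the membrane protease matriptase, differed by 1.30 ± 0.06 (adjusted p = 9.24e-07), its inhibitors SPINT1 and SPINT2 by 0.56 ± 0.06 and 0.35 ± 0.04, and PRSS8, prostasin, by 0.69 ± 0.07. ESRP1, which directs epithelial splicing, differed by 0.92 ± 0.05 (adjusted p = 4.57e-06), while ESRP2 was at 0.08 ± 0.08 and not called (adjusted p = 0.459). The kallikreins KLK5, KLK7 and KLK10 passed through the beta libraries alone. A difference upward was therefore built into their entry, which raises the median of this list and favours a high share of calls upward. RAB25, PRSS22, KLK6, KLK8 and KLK11 were too low to test.

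Luminal markers were also measured. Of 9 tested of 17, 5 were higher and 1 lower, and their summed value was 35045 to 41437 in the alpha, 26799 to 29349 in the beta and 24429 to 25254 in the vector libraries. AREG alone made up most of the alpha sum, and without it the order of alpha and beta turned, to 10758 to 11658 in the alpha, 17952 to 19042 in the beta and 7896 to 8326 in the vector libraries. That turn rested largely on SLPI and CD24, with means of 934 and 4361 in the alpha and 4641 and 7455 in the beta libraries. The secreted antiprotease SLPI had values of 667, 624 and 630.1 in the vector libraries, 961, 948 and 892 in the alpha libraries and 5207, 4764 and 3950.5 in the beta libraries, with the beta libraries 2.30 ± 0.09 above alpha (adjusted p = 4.88e-07). CD24 differed by 0.77 ± 0.06, MUC1 by 2.0 ± 0.23 and FOXA1 by 0.92 ± 0.13 (adjusted p = 1.64e-05, 0.000288 and 0.000893). MUC1 was lowest in the alpha libraries (28.98 ± 2.7), and the vector (71.1 ± 36.98) and beta libraries (120.5 ± 27.8) overlapped. GATA3 was higher by 0.50 ± 0.13 (adjusted p = 0.0168), a call lost without alpha replicate 2 or 3 or beta replicate 1 (adjusted p = 0.0529 to 0.0583). The lower member was AREG, given with the EGF ligands. The hormone receptor ESR1 was at 0.51 ± 0.36 and not called (adjusted p = 0.308), and PGR was too low to test.

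Precursors and crosslinkers of the cornified envelope, the protein shell of differentiated squamous cells, were partly raised. Only 17 of 31 could be tested, of which 9 were higher and 2 lower (median 1.27). TGM1, the membrane transglutaminase that crosslinks the envelope, had values of 93.6, 80.9 and 69.4 in the vector libraries, 197, 197 and 196 in the alpha libraries and 1373, 1283 and 1525 in the beta libraries, 3 separate levels with 2.81 ± 0.09 between alpha and beta (adjusted p = 9.45e-08); these values equal those of another gene ID. PI3 (elafin), an antiprotease that is crosslinked into the envelope, had values of 91.9, 89.4 and 100.3 in the vector libraries, 162, 180.4 and 172 in the alpha libraries and 1451, 1451 and 1234 in the beta libraries and differed by 3.0 ± 0.10 (adjusted p = 1.15e-07). PPL (periplakin) differed by 1.48 ± 0.06, CSTA (cystatin A) by 1.27 ± 0.11, SBSN by 1.61 ± 0.23 and SCEL by 1.12 ± 0.15 (adjusted p = 7.01e-07, 5.86e-05, 0.000932 and 0.000645). SPRR1B, SPRR2A and SPRR2D were called at low levels and passed through the beta libraries alone, so a difference upward was built into their entry. IVL (involucrin) was at 0.12 ± 0.24 and FLG (filaggrin) at 0.59 ± 0.24, neither called (adjusted p = 0.745 and 0.0919). LORICRIN, DSG1 and 12 others were too low to test. TMEM45A and ECM1 were lower, at -1.18 ± 0.16 and -1.0 ± 0.13 (adjusted p = 0.000632 and 0.000637).

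Barrier lipid genes gave a count near the background, with 3 higher and 2 lower of 16 tested of 24. NIPAL4, mutated in ichthyosis, was at 20.5 ± 6.4 in the vector, 177 ± 7.76 in the alpha and 511 ± 114 in the beta libraries and differed by 1.5 ± 0.16 (adjusted p = 0.00016). The phospholipase LIPH differed by 2.13 ± 0.33 and the acid ceramidase ASAH1 by 0.32 ± 0.05 (adjusted p = 0.00131 and 0.00176). UGCG, the glucosylceramide synthase, was lower, at -0.66 ± 0.08 (adjusted p = 0.00028). ALOXE3, an epidermal lipoxygenase, was lower, at -0.73 ± 0.20 (adjusted p = 0.0241), a call lost without alpha replicate 1, 2 or 3 or beta replicate 2 or 3 (adjusted p = 0.0623 to 0.0671).

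**Figure D2:**
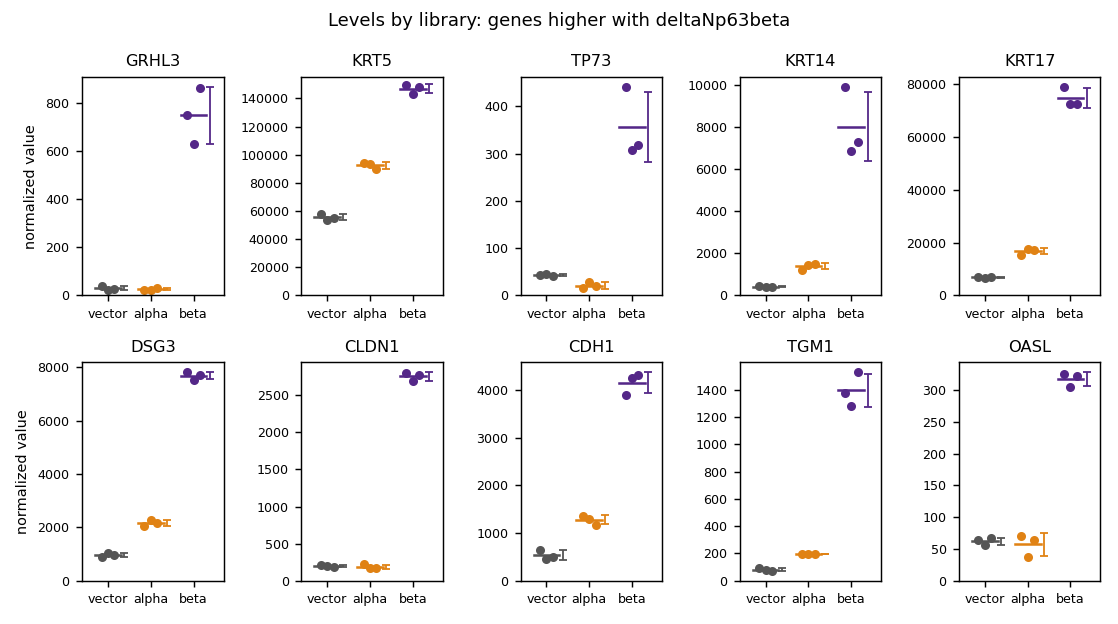
Normalized value (y axis, linear, from 0) of 10 genes higher with deltaNp63beta in the 3 vector, 3 alpha and 3 beta libraries; points are libraries, horizontal lines group means and bars beside them 1 SD. GRHL3, CLDN1 and OASL overlap between vector and alpha, the alpha libraries are lowest for TP73, and KRT5, KRT14, KRT17, DSG3, CDH1 and TGM1 stand in 3 separate steps.

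Mesenchymal genes were mostly lower with deltaNp63beta. Of 34 tested of 37 listed, 20 (58.8%) were lower and 2 higher, with a median of -0.52, and 8 of the lower ones passed the test against a 1.5-fold change. Besides FN1 and COL6A3, TGFBI, a secreted matrix protein induced by TGF-beta, had values of 121481, 122853 and 125347 in the vector libraries, 65059, 69593 and 72679 in the alpha libraries and 26139, 28054 and 28472 in the beta libraries, a stepwise order downward with -1.33 ± 0.05 between alpha and beta (adjusted p = 3.73e-07). THBS1, thrombospondin 1, had values of 27211, 28736 and 27917 in the vector libraries, 25442, 27961 and 28307 in the alpha libraries and 11519, 12398 and 11770 in the beta libraries, with vector and alpha overlapping and beta below (adjusted p = 7.73e-07). VIM, the intermediate filament of mesenchymal cells, had values of 41424, 41867 and 40482 in the vector libraries, 35136, 37681 and 36792 in the alpha libraries and 22134, 23594 and 22969 in the beta libraries, a modest difference of -0.67 ± 0.04 without overlap (adjusted p = 7.42e-06). The collagen crosslinking enzyme LOX differed by -0.95 ± 0.06 and S100A4 by -1.10 ± 0.08 (adjusted p = 6.19e-06 and 1.44e-05).

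Among the transcription factors of the epithelial-mesenchymal transition, SNAI2 was lower, at -0.96 ± 0.07, and so was ZEB2, at -1.24 ± 0.20 (adjusted p = 1.18e-05 and 0.00141). ZEB1, which represses CDH1, had values of 492, 489 and 503 in the vector libraries, 292, 211 and 300.0 in the alpha libraries and 160.4, 197 and 202 in the beta libraries. It was lower, at -0.51 ± 0.17 (adjusted p = 0.0439), a call lost without alpha replicate 1 or 3 or beta replicate 1, 2 or 3 (adjusted p = 0.0545 to 0.145). SNAI1, TWIST1 and TWIST2 had log2 fold changes of -0.44, 0.05 and -0.18 and were not called. CDH2, N-cadherin, was lower, at -0.28 ± 0.06 (adjusted p = 0.00754). The higher members were TAGLN, an actin-binding protein also found in myoepithelial cells, by 0.56 ± 0.08 and COL12A1 by 0.35 ± 0.08 (adjusted p = 0.00105 and 0.0122). Fibroblast markers did not move one way: FBLN1, which made up most of their summed value, MFAP5 and COL1A1 were higher, at 0.78 ± 0.04, 1.53 ± 0.27 and 0.78 ± 0.18, DCN was lower, at -1.09 ± 0.14, and LUM, PDGFRA and COL3A1 were too low to test. The sum of those 8 markers was 7778 to 7911 in the alpha, 12511 to 13576 in the beta and 10601 to 10949 in the vector libraries.

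TGF-beta pathway genes were more often lower than higher, with 15 (46.9%) lower and 5 higher of 32 tested of 35 and a median of -0.39. In this pathway, ligands of the TGF-beta and BMP families act through paired receptors and SMAD factors. Among ligands and their carriers, TGFB1 differed by -0.63 ± 0.06, INHBA, the activin A chain, by -2.69 ± 0.19, and LTBP1 by -0.47 ± 0.04 (adjusted p = 6.00e-05, 1.37e-05 and 6.56e-05). INHBA had values of 485, 439 and 472 in the vector libraries, 529, 460.0 and 512 in the alpha libraries and 64.6, 105 and 65.9 in the beta libraries, so vector and alpha lay near each other and only beta was far below. Of the receptors, TGFBR2 was lower, at -0.69 ± 0.05 (adjusted p = 1.15e-05), and TGFBR1 was at 0.15 ± 0.08 and not called. SMAD3 was lower, at -0.50 ± 0.07 (adjusted p = 0.00103), and SMAD2 and SMAD4 were at 0.05 ± 0.08 and -0.09 ± 0.10, not called.

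Target genes of TGF-beta gave large differences as well. PMEPA1, a feedback inhibitor of the pathway, had values of 4987, 4788 and 5656 in the vector libraries, 3818, 5143 and 4736 in the alpha libraries and 992, 1157 and 1279.6 in the beta libraries. CCN2, connective tissue growth factor, had values of 1608, 1649.7 and 1758 in the vector libraries, 1362, 1370.2 and 1272 in the alpha libraries and 312, 344 and 336 in the beta libraries. For PMEPA1 the vector and alpha libraries overlapped, for CCN2 the vector libraries were the highest, and for both the beta libraries were lowest, with log2 fold changes of -1.99 ± 0.12 and -2.01 ± 0.08 (adjusted p = 5.57e-06 and 3.29e-07). The inhibitory SMAD7 and the corepressors SKIL and SKI were lower, at -0.54 ± 0.12, -0.67 ± 0.14 and -0.28 ± 0.06. Among the higher members, ID3, a BMP target, was at 499 ± 6.94 in the vector, 468 ± 20.2 in the alpha and 1444 ± 79.4 in the beta libraries, in values that equal those of another gene ID (adjusted p = 9.24e-07). FST, the activin antagonist follistatin, was higher by 1.47 ± 0.16 and BAMBI, a decoy receptor, by 0.62 ± 0.13 (adjusted p = 0.000195 and 0.00558). The count of higher members was 3 without alpha replicate 2 or 3.

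YAP and TAZ with their TEAD partners drive genes of growth and adhesion, and 13 of 26 such genes and factors (50%) were lower, against 2 higher (median -0.27). The classical targets CCN1 and CCN2 were both among them. CCN1 had values of 5079.8, 5207 and 5227 in the vector libraries, 5299, 5495 and 5682 in the alpha libraries and 1907, 1932 and 1859.9 in the beta libraries, with vector and alpha close and beta far below (adjusted p = 9.45e-08). F3, tissue factor, differed by -1.27 ± 0.06, AXL by -0.80 ± 0.05 and NT5E by -0.72 ± 0.05 (adjusted p = 1.38e-06, 8.39e-06 and 1.36e-05). Other target genes did not follow: ANKRD1 was at 0.02 ± 0.52, AJUBA at -0.08 ± 0.05 and PTPN14 at 0.05 ± 0.05, none called. YAP1 was higher by 0.14 ± 0.04 (adjusted p = 0.0342), a call lost without alpha replicate 2 or 3 or beta replicate 1, 2 or 3 (adjusted p = 0.053 to 0.117), and MYOF by 0.34 ± 0.05 (adjusted p = 0.00137). WWTR1 (TAZ), TEAD1 and TEAD4 were at -0.10, -0.05 and 0.17 and not called.

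The promoters of 4 genes are shown because the genes behind them differed by more than 1.5-fold, and because members of the p53 family bind a decamer half-site that a search of the 250 bases before and 50 after each start found once in each. They were chosen after the values were seen. Sequences are from RefSeq on GRCh38.p14, 5′ to 3′ on the gene's strand, with the match to the p53-family half-site in capitals.
DSG3, chr18:31447491-31447790, plus strand: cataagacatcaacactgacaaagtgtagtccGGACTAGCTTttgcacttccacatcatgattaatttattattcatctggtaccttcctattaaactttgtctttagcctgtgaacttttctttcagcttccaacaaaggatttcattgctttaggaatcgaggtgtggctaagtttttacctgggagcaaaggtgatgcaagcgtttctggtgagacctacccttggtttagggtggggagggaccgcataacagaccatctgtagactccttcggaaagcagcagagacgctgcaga
KRT5, chr12:52520345-52520644, minus strand: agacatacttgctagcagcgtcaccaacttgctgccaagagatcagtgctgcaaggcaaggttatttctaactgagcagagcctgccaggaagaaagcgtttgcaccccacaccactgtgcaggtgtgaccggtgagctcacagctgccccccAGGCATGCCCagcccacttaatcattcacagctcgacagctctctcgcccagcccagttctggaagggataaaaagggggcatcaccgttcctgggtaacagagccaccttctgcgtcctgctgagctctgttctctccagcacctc
FGFBP1, chr4:15938691-15938990, minus strand: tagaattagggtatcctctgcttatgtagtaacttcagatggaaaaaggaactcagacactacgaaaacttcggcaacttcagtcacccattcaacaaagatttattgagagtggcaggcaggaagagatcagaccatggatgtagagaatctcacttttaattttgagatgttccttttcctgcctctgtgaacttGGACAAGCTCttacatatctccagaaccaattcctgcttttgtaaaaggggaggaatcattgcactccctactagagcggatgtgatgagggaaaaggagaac
PMEPA1, chr20:57711423-57711722, minus strand: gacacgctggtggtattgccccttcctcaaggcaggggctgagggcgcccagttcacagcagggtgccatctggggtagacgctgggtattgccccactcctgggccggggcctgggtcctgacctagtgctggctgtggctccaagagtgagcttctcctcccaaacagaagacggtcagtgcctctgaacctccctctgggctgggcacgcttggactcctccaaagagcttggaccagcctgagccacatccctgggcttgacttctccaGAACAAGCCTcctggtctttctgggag
The match starts at -218, -97, -53 and 23 relative to the start site of DSG3, KRT5, FGFBP1 and PMEPA1. The half-site, read on both strands, was found in 6.5% of all 27305 promoters of this length, in 5.4% of those of 10564 genes tested, in 6.5% of 248 at least 2-fold higher and in 5.1% of 234 at least 2-fold lower. A match is a stretch of letters and no measure of binding.

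FGFBP1, a secreted carrier that frees FGFs from the matrix, was among the genes raised most in steps, with values of 561, 473 and 501 in the vector libraries, 2111, 2286 and 2403 in the alpha libraries and 7581, 6896 and 6452 in the beta libraries (difference 1.62 ± 0.07, adjusted p = 7.73e-07).

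Proteases of the plasminogen system and metalloproteases moved both ways. Of 18 tested of 25, 8 were higher and 5 lower. On this list MMP9 passed the minimum through the beta libraries alone and MMP13 through the alpha libraries alone, so a difference was built into their entry. The inhibitors SERPINE2 and TIMP1 were lower, and the activators PLAU (urokinase) and PLAT higher. TIMP1, an inhibitor of metalloproteases, had values of 37282, 36783 and 36434 in the vector libraries, 20833, 22511 and 22443 in the alpha libraries and 7374, 7658 and 6678 in the beta libraries, a stepwise order down with -1.60 ± 0.06 between alpha and beta (adjusted p = 2.57e-07). SERPINE2 differed by -1.59 ± 0.11 (adjusted p = 1.18e-05). PLAU had values of 2217, 2329 and 2048 in the vector libraries, 1551, 1409 and 1446 in the alpha libraries and 2716, 2896 and 2713 in the beta libraries, lowest in alpha and highest in beta (adjusted p = 7.42e-06), and PLAT differed by 0.41 ± 0.07 (adjusted p = 0.00239). MMP28, an epidermal metalloprotease, was at 68.5 ± 17.2 in the alpha and 542 ± 113 in the beta libraries (adjusted p = 1.93e-05), and TIMP2 was higher by 0.27 ± 0.06 (adjusted p = 0.0065). PLAUR, the urokinase receptor, was higher by 0.32 ± 0.08 (adjusted p = 0.0167), a call lost without alpha replicate 1 or 3 or beta replicate 2 or 3 (adjusted p = 0.0503 to 0.0611). The number higher was 4 without alpha replicate 3 or beta replicate 2 and 5 without beta replicate 3.

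Hemidesmosome and basement membrane genes divided by gene rather than as a group, with 11 higher and 12 lower of 27 tested of 30, a median of -0.07, and 6 higher in the fit without trend and robust moderation. Chains of laminin-332, the anchoring laminin of basal epithelium, were lower. LAMB3 had values of 49280, 49076 and 48616 in the vector libraries, 63210, 71708 and 69332 in the alpha libraries and 31428, 35476 and 36293 in the beta libraries, so the alpha libraries were above and the beta libraries below the vector level, with -0.99 ± 0.06 between alpha and beta (adjusted p = 8.78e-06). LAMA3 differed by -0.58 ± 0.05 (adjusted p = 4.07e-05) and stayed above the vector level. PLEC, plectin, differed by -0.89 ± 0.08, COL17A1 by -0.40 ± 0.05 and FERMT1, kindlin-1, by -0.58 ± 0.05 (adjusted p = 5.84e-05, 0.00049 and 4.61e-05). In the other direction, the laminin chain LAMB1 had values of 7129, 7180.3 and 7189.5 in the vector libraries, 7007, 6421 and 6357 in the alpha libraries and 14354, 13638 and 13617 in the beta libraries, with the beta libraries well above both others (adjusted p = 1.20e-06). DST differed by 0.50 ± 0.05 and ITGB6 by 0.72 ± 0.07 (adjusted p = 0.000125 and 0.000131). Of the hemidesmosomal integrin, ITGA6 was higher by 0.20 ± 0.04 (adjusted p = 0.00808) and ITGB4 was at -0.19 ± 0.07, not called (adjusted p = 0.0809).

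EGF ligands and receptors showed 5 lower and 3 higher of 17 tested of 18. Epidermal growth factor was in the medium of every culture. Among ligands, AREG (amphiregulin) had values of 16533, 16928 and 16577 in the vector libraries, 24287, 28227 and 29780 in the alpha libraries and 10387, 10307 and 8847 in the beta libraries, with alpha above and beta below the vector level and -1.48 ± 0.08 between them (adjusted p = 4.10e-06). EREG (epiregulin) was lower, at -0.92 ± 0.09, and so was TGFA, at -0.41 ± 0.06 (adjusted p = 8.63e-05 and 0.0012). NRG1 was lower, at -0.65 ± 0.18 (adjusted p = 0.0217), a call lost without alpha replicate 2 or 3 (adjusted p = 0.0746 to 0.0752). EPGN (epigen) was higher by 0.52 ± 0.06 (adjusted p = 0.000312), and HBEGF was at 0.25 ± 0.10, not called. The receptor EGFR had values of 10816, 10272 and 10967 in the vector libraries, 14956, 14203 and 15493 in the alpha libraries and 10638, 10200 and 11173 in the beta libraries. The vector and beta libraries overlapped and the alpha libraries were above both, with a log2 fold change of -0.48 ± 0.05 for beta against alpha (adjusted p = 0.000146). ERBB2 and ERBB3 were at -0.01 ± 0.06 and 0.37 ± 0.21 and not called. LRIG3 was higher by 0.55 ± 0.09 (adjusted p = 0.0018), and the sheddase ADAM17 by 0.31 ± 0.09 (adjusted p = 0.0253), a call lost without alpha replicate 1 or 2 or beta replicate 1 or 3 (adjusted p = 0.0728 to 0.0867).

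MAPK pathway genes transcribed on ERK signalling, feedback inhibitors and others such as EMP1, were lower in 9 and higher in 3 of 21 tested (median -0.24). The number higher was 1 without alpha replicate 1 or beta replicate 2. The phosphatase DUSP6 had values of 2244, 2575 and 2174 in the vector libraries, 4051, 3927 and 3583 in the alpha libraries and 1467, 1458 and 1664 in the beta libraries, alpha above and beta below the vector level, and differed by -1.33 ± 0.07 (adjusted p = 2.57e-06). SPRY4, a Sprouty inhibitor, differed by -1.31 ± 0.07 and DUSP1 by -1.23 ± 0.08 (adjusted p = 2.79e-06 and 9.57e-06). PHLDA1 had values of 3585, 3717 and 3830.5 in the vector libraries, 5890.1, 6531 and 6770.3 in the alpha libraries and 3453, 3268 and 3373 in the beta libraries, with the alpha libraries apart from the others (adjusted p = 7.26e-06). DUSP4, DUSP5, DUSP7 and DUSP10 were lower too, at -0.55 to -0.74. ETV1, ETV4 and ETV5 had log2 fold changes of 0.09, -0.06 and -0.09 and were not called. EMP1 was higher by 0.59 ± 0.08 (adjusted p = 0.000708), and SPRY2 by 0.39 ± 0.11 (adjusted p = 0.0206), a call lost without alpha replicate 1 or 2 or beta replicate 2 (adjusted p = 0.0552 to 0.0756). IER3 could not be tested, since the table lists it at or near 0 in all libraries under its ID.

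AP-1 subunits and early response factors were lower in 11 and higher in 6 of 24 (median -0.20). FOSL1 (FRA1) had values of 2521, 2715 and 2718 in the vector libraries, 3654, 3922 and 3879 in the alpha libraries and 1176, 1264 and 1246 in the beta libraries, with alpha above and beta below the vector level and -1.63 ± 0.06 between them (adjusted p = 1.64e-07). EGR1 had values of 2238, 2614 and 2617 in the vector libraries, 3424, 4360.5 and 3932 in the alpha libraries and 1527, 1487 and 1447 in the beta libraries in the same order (adjusted p = 5.01e-06). KLF6 differed by -1.07 ± 0.04 and KLF10 by -0.61 ± 0.06 (adjusted p = 6.43e-07 and 0.000128). EGR2 differed by -2.92 ± 0.51 at low levels (adjusted p = 0.00239) and passed the minimum through the alpha libraries alone. BTG2, an antiproliferative p53 target, was higher by 1.13 ± 0.09 and MYC by 0.36 ± 0.05 (adjusted p = 3.38e-05 and 0.000942). FOSL2 was higher by 0.28 ± 0.07 (adjusted p = 0.0185), a call lost without alpha replicate 2 or 3 or beta replicate 2 (adjusted p = 0.0552 to 0.0676). The number higher was 2 without alpha replicate 2 or beta replicate 2 and 3 without alpha replicate 3 or beta replicate 1, and 3 in the fit without trend and robust moderation.

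**Figure D3:**
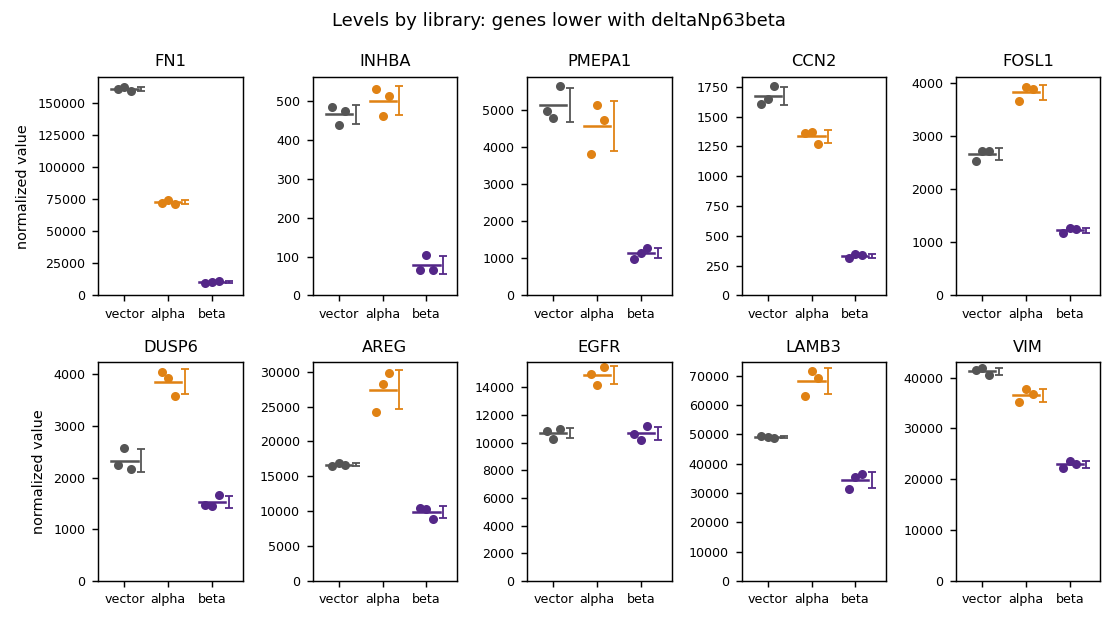
Normalized value (y axis, linear, from 0) of 10 genes lower with deltaNp63beta than with deltaNp63alpha in the 3 vector, 3 alpha and 3 beta libraries; points are libraries, horizontal lines group means and bars beside them 1 SD. For FN1, CCN2 and VIM the vector libraries are highest, for FOSL1, DUSP6, AREG, EGFR and LAMB3 the alpha libraries are highest, and for EGFR the vector and beta libraries overlap.

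Notch genes, whose receptors signal between neighbouring epithelial cells through cleaved intracellular domains, were higher in 8 and lower in 5 of 21 tested of 28. Among receptors, NOTCH1 was higher by 0.42 ± 0.07 and NOTCH3 by 1.19 ± 0.27, while NOTCH2 was lower, at -0.34 ± 0.06 (adjusted p = 0.00275, 0.00879 and 0.00225). Of the ligands, JAG1 was lower, at -0.37 ± 0.06 (adjusted p = 0.00226) and DLL1 was at 0.66 ± 0.64, not called. Of the HES-family genes on the list, HES1, HES2 and HES4 were higher by 0.98 ± 0.07, 1.85 ± 0.09 and 1.20 ± 0.12 (adjusted p = 1.18e-05, 1.92e-06 and 9.40e-05). NRARP, a Notch-induced feedback inhibitor, had values of 102, 112 and 102 in the vector libraries, 91.95, 71.95 and 75.5 in the alpha libraries and 537, 433 and 514 in the beta libraries, with every beta library several times the others (adjusted p = 3.30e-06). MAML3, a coactivator, was higher by 0.86 ± 0.13, and LFNG, a glycosyltransferase that modifies the receptors, lower, at -1.60 ± 0.21 (adjusted p = 0.00122 and 0.000568). Without alpha replicate 1 or beta replicate 2 the number lower was 3.

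Known p53 target genes, which p63 can also bind, had no common direction, with 11 higher and 7 lower of 30 (median 0.06). CDKN1A, the cell cycle inhibitor p21, had values of 7115, 6894 and 6652 in the vector libraries, 6277, 6712 and 6346 in the alpha libraries and 4173, 5081 and 4846 in the beta libraries, lower with beta, at -0.46 ± 0.07 (adjusted p = 0.00136). SFN (14-3-3 sigma) had values of 7715, 7163 and 7790.3 in the vector libraries, 16589, 19976 and 18221 in the alpha libraries and 21314, 21354 and 20542 in the beta libraries, both isoforms far above vector. It was higher by 0.21 ± 0.06 (adjusted p = 0.0321), a call lost without alpha replicate 1 or 3 or beta replicate 1 or 2 (adjusted p = 0.0689 to 0.094). PMAIP1 (NOXA) was higher by 1.39 ± 0.08, MDM2 by 0.93 ± 0.06 and SERPINB5 (maspin) by 0.41 ± 0.04 (adjusted p = 5.08e-06, 1.22e-05 and 0.000171). TIGAR was lower, at -1.25 ± 0.21, and so was TP53INP1, at -0.65 ± 0.15 (adjusted p = 0.00262 and 0.0105). GADD45A and BBC3 (PUMA) were at 0.20 ± 0.08 and 0.37 ± 0.18 and not called. The number lower was 3 without alpha replicate 1 and 4 without alpha replicate 2 or beta replicate 2.

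Secreted antimicrobial and antiprotease genes of epithelia were higher in 10 and lower in 1 of 19 tested of 32 (median 0.62). Besides SLPI and PI3, S100A9, a subunit of calprotectin, had values of 174, 141 and 134 in the vector libraries, 435, 410.5 and 537 in the alpha libraries and 2089, 1668 and 1514 in the beta libraries, stepwise with 1.92 ± 0.13 between alpha and beta (adjusted p = 1.29e-05), and its partner S100A8 differed by 2.52 ± 0.19. SERPINB2 differed by 3.44 ± 0.22 and SERPINB3 by 3.73 ± 0.26 (adjusted p = 8.18e-06 and 1.18e-05), the last with a near-identical copy in SERPINB4. LCN2 and SPINK5 were at 0.96 ± 0.47 and 0.34 ± 0.23, not called. SERPINB8 was lower, at -0.23 ± 0.07 (adjusted p = 0.0384), a call lost without alpha replicate 1, 2 or 3 or beta replicate 1 or 2 (adjusted p = 0.0591 to 0.116). A further 13 listed genes, among them the defensins DEFB1 and DEFB4A and S100A7, were too low to test.

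IL1-family and NF-kB genes were higher in 15 and lower in 2 of 25 tested of 37 (median 0.54). The test against a 1.5-fold change left 4 higher and 1 lower. The cytokines IL1A and IL1B were higher by 0.68 ± 0.11 and 1.01 ± 0.14, their antagonist IL1RN by 2.19 ± 0.41 and their accessory receptor chain IL1RAP by 0.41 ± 0.09. The receptor IL1R1 was lower, at -0.62 ± 0.10 (adjusted p = 0.00165). IL33, a nuclear alarmin, had values of 64.6, 58.5 and 68.3 in the vector libraries, 234, 280.2 and 281 in the alpha libraries and 116, 70.2 and 86.4 in the beta libraries, with the alpha libraries apart and the beta libraries slightly above vector (beta against alpha -1.56 ± 0.19, adjusted p = 0.000405). Of chemokines, CXCL16 differed by 1.55 ± 0.14, CXCL14 by 2.47 ± 0.34 and CXCL1 by 1.17 ± 0.11 (adjusted p = 5.95e-05, 0.00065 and 7.70e-05), and CXCL1 was lowest in the alpha libraries with vector and beta overlapping. The NF-kB inhibitors TNFAIP3 (A20) and NFKBIA were higher by 1.43 ± 0.13 and 0.64 ± 0.08 (adjusted p = 7.15e-05 and 0.000517), and NFKB1 and NFKB2 were at 0.17 and 0.16, not called. IL6, CCL2, CCL5 and 9 others, TNF among them, were too low to test.

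Interferon-stimulated genes were higher in 21 and lower in none of 33 tested of 35 (median 0.62), but the differences were uneven, with 5 passing the test against a 1.5-fold change and ISG15, MX1 and IFI6 at 0.14, -0.13 and 0.0 and not called. OASL, of the oligoadenylate synthetase family, had values of 63.9, 55.7 and 66.6 in the vector libraries, 71.2, 37.5 and 63.6 in the alpha libraries and 325, 305 and 323 in the beta libraries, with only the beta libraries apart (adjusted p = 6.27e-05). The RNA sensors RIGI and IFIH1 were higher by 1.15 ± 0.11 and 0.83 ± 0.11, and IFIT1 and IFIT2 by 1.05 ± 0.16 and 1.24 ± 0.20. BST2 (tetherin) was higher by 0.88 ± 0.07 (adjusted p = 2.06e-05). Of the class I antigen presentation genes, B2M had values of 10533, 10271 and 10477 in the vector libraries, 10199, 9455 and 9641 in the alpha libraries and 17242, 15425 and 15079 in the beta libraries, a clear step up with beta (adjusted p = 3.51e-05). HLA-B differed by 0.99 ± 0.05 and HLA-C by 0.49 ± 0.04 (adjusted p = 2.94e-06 and 5.82e-05). The deposited table holds IDs without a symbol whose values equal one another, so levels of HLA genes are uncertain. A fit without trend and robust moderation called 2 members lower.

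NRF2 targets and pentose phosphate enzymes, which supply glutathione, thioredoxin and NADPH, were higher in 22 (75.9%) and lower in none of 29 (median 0.49), with 4 passing the test against a 1.5-fold change. AKR1C2, an aldo-keto reductase, had values of 1506, 1233 and 1529 in the vector libraries, 671, 610.0 and 603 in the alpha libraries and 2226, 2196 and 2161 in the beta libraries, lowest in alpha and highest in beta. AKR1C1 and AKR1C3 differed by 1.27 ± 0.06 and 1.22 ± 0.09 (adjusted p = 2.53e-07, 1.90e-06 and 1.55e-05 for the family). These 3 are near-identical copies, so reads may be shared among them. TKT, transketolase, had values of 15050, 14263 and 13727 in the alpha libraries and 21476, 22222 and 22578 in the beta libraries, a difference of 0.62 ± 0.05 without overlap (adjusted p = 1.64e-05). PGD and TALDO1 of the same pathway were higher by 0.55 ± 0.05 and 0.46 ± 0.05. NQO1 was higher by 0.55 ± 0.05, GCLC by 0.66 ± 0.05, SLC7A11 by 0.45 ± 0.07 and the factor NFE2L2 itself by 0.30 ± 0.06. HMOX1 and TXNRD1 were at 0.27 ± 0.25 and 0.06 ± 0.08, not called. GPX2 of this list passed the minimum through the beta libraries alone, so a difference upward was built into its entry.

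Sterol and fatty acid synthesis genes were higher in 23 (71.9%) and lower in 1 of 32 tested (median 0.31), by modest amounts: 1 passed the test against a 1.5-fold change, and 14 were higher in the fit without trend and robust moderation. FASN, fatty acid synthase, had values of 28143, 25049 and 24326 in the vector libraries, 25822, 26636 and 27423 in the alpha libraries and 39897, 44248 and 47211 in the beta libraries, with vector and alpha overlapping and beta above (adjusted p = 3.89e-05). SCD differed by 0.70 ± 0.04, ACLY by 0.74 ± 0.05, ACSS2 by 0.49 ± 0.06 and, in the sterol branch, FDPS by 0.79 ± 0.04 (adjusted p = 5.72e-06, 6.58e-06, 0.000254 and 3.17e-06). The sterol enzyme SQLE, squalene epoxidase, was at 0.05 ± 0.04, not called.

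Genes of the integrated stress and unfolded protein responses were higher in 17 and lower in 1 of 27 (median 0.25). The differences were mostly small, and the test against a 1.5-fold change left 1 higher and 1 lower. ASNS, asparagine synthetase, had values of 566, 573 and 511 in the vector libraries, 814, 809 and 997 in the alpha libraries and 1865, 1890 and 1868 in the beta libraries, in 3 steps, and differed by 1.11 ± 0.09 (adjusted p = 2.21e-05). The amino acid transporter chain SLC3A2 differed by 0.75 ± 0.04, the serine pathway enzyme PSAT1 by 0.73 ± 0.05 and the folate enzyme MTHFD2 by 0.37 ± 0.04 (adjusted p = 3.45e-06, 7.85e-06 and 0.000173). Of the chaperones, HSP90B1 was higher by 0.62 ± 0.05 (adjusted p = 1.61e-05) with alpha below the vector level, and HSPA5 was at -0.01 ± 0.05, not called. DDIT3 and CHAC1 were at 0.19 ± 0.18 and 0.12 ± 0.17, not called. HERPUD1 was lower, at -0.89 ± 0.07 (adjusted p = 2.94e-05).

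Differences in S phase and mitosis genes were small. Of 28 S phase genes 12 were lower and 1 higher, and none passed the test against a 1.5-fold change. E2F1 had values of 757, 686 and 735 in the vector libraries, 535, 637 and 618 in the alpha libraries and 334, 399 and 376 in the beta libraries and differed by -0.69 ± 0.11 (adjusted p = 0.00126), CCNE1 differed by -0.66 ± 0.11, TYMS by -0.46 ± 0.05, FEN1 by -0.44 ± 0.05 and PCNA by -0.30 ± 0.04 (adjusted p = 0.00176, 0.00028, 0.000325 and 0.00114). CDT1, a licensing factor, was higher by 0.34 ± 0.07 (adjusted p = 0.00419), and the helicase subunits MCM2 to MCM7 lay between -0.04 and 0.10 and were not called. Of 29 mitosis genes 9 were higher and 4 lower. The kinesin CENPE was higher by 0.41 ± 0.06, cyclins CCNA2 and CCNB2 by 0.26 ± 0.04 and 0.31 ± 0.06, PTTG1 by 0.32 ± 0.06 and NUSAP1 by 0.31 ± 0.07 (adjusted p = 0.00089, 0.00179, 0.00277, 0.0026 and 0.00742). TPX2 was lower, at -0.20 ± 0.04, and so was KIF23, at -0.21 ± 0.05 (adjusted p = 0.00658 and 0.00904), as was FOXM1, at -0.19 ± 0.05 (adjusted p = 0.0198), a call lost without alpha replicate 1 or 2 or beta replicate 2 (adjusted p = 0.0625 to 0.0737). The number of mitosis genes lower was 2 without alpha replicate 1 or 2, and 2 in the fit without trend and robust moderation.

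Glycolysis and hypoxia genes were called in equal number each way, 8 of 30, and transcripts of the mitochondrial genome in 4 lower and 1 higher of 13. HK2, hexokinase 2, was higher by 0.58 ± 0.06, CA12 by 0.53 ± 0.06, LDHB by 0.34 ± 0.05 and the glucose transporter SLC2A1 by 0.46 ± 0.08 (adjusted p = 0.000122, 0.000307, 0.00143 and 0.00225). NDRG1 had values of 3727, 3648 and 3639 in the vector libraries, 6095, 6471 and 6912 in the alpha libraries and 3307, 3239.5 and 3329 in the beta libraries, with the alpha libraries apart (beta against alpha -0.98 ± 0.05, adjusted p = 3.10e-06). P4HA2 was lower, at -0.57 ± 0.05, and so was ALDOA, at -0.28 ± 0.05 (adjusted p = 6.27e-05 and 0.00203), and GAPDH and PGK1 were at 0.02 and -0.02, not called. PFKP was higher by 0.17 ± 0.04 (adjusted p = 0.0194), a call lost without alpha replicate 2 or 3 or beta replicate 2 (adjusted p = 0.0544 to 0.0838). The number of glycolysis and hypoxia genes higher was 4 without alpha replicate 2 or beta replicate 2 and 5 without alpha replicate 3 or beta replicate 3, the number lower was 5 without alpha replicate 2 or 3, and the fit without trend and robust moderation called 5 higher. Of the mitochondrial transcripts, MT-ND5 was lower, at -0.31 ± 0.04, and so was MT-ND6, at -0.47 ± 0.10, and MT-CO1 was higher by 0.18 ± 0.03 (adjusted p = 0.00062, 0.00821 and 0.0033). The call of MT-CO1 was lost under quantile normalization, where its log2 fold change was 0. Calls of MT-ND1 (-0.26 ± 0.06, adjusted p = 0.0122) and MT-CYB (-0.24 ± 0.06, adjusted p = 0.0157) were lost without alpha replicate 2 or 3 (adjusted p = 0.053 to 0.0535) and without alpha replicate 2 or 3 (adjusted p = 0.0653 to 0.0665), respectively, which left 2 lower; quantile normalization also left 2 lower, and the fit without trend and robust moderation left 1 lower and none higher.

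**Figure D4:**
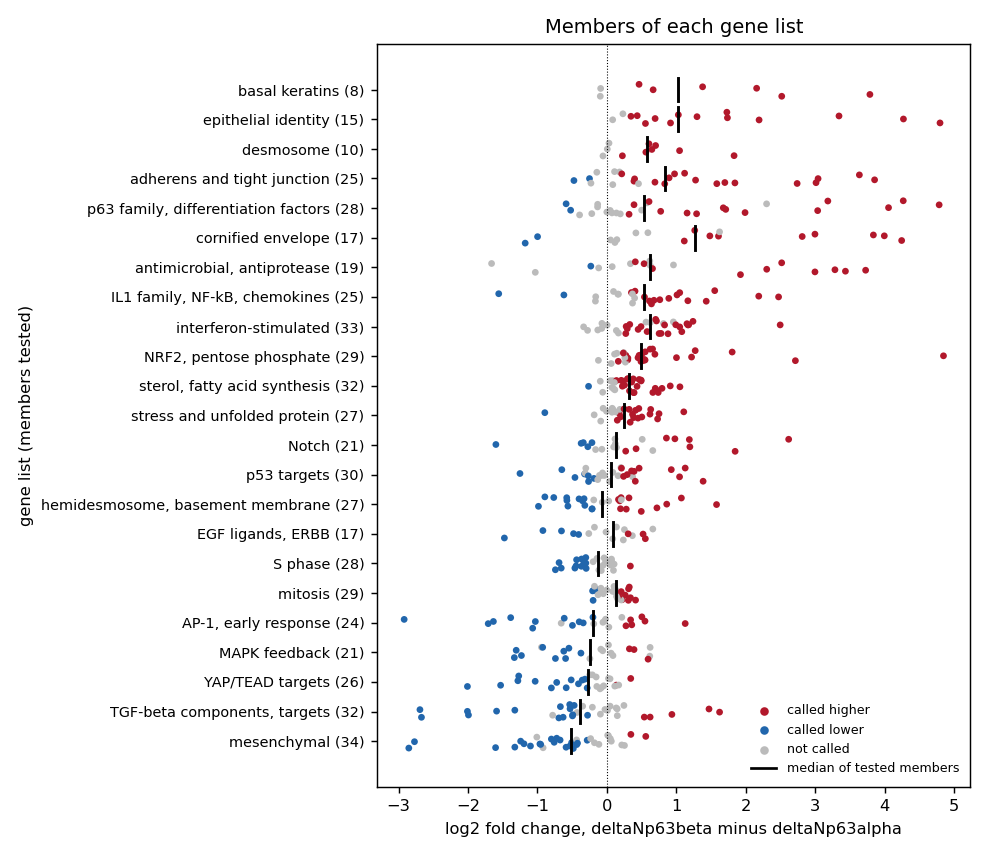
Log2 fold change, deltaNp63beta minus deltaNp63alpha (x axis), of every tested member of 23 gene lists (y axis, number tested in brackets); red points were called higher, blue lower, grey not called, and the black line is the median of the tested members. Medians run from 1.27 for the cornified envelope and about 1 for basal keratins and epithelial identity to -0.52 for mesenchymal genes. The cornified envelope and epithelial identity lists each hold 3 members that passed the minimum through the beta libraries alone. A difference upward was built into the entry of those members, which raises these medians. Vertical scatter within a row has no meaning.

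The levels in the vector libraries show several arrangements among the genes named above, given here as levels because comparisons with vector share these libraries. In the first, vector and alpha overlapped or lay close while beta stood apart, as for GRHL3, CLDN1, CLDN4, NCOA7, OASL and FASN upward and ANGPTL4, PMEPA1, THBS1 and PLEC downward. In the next, alpha and beta lay on the same side of vector with beta farther out, as for KRT5, KRT14, KRT17, DSG3, CDH1, TGM1 and FGFBP1 upward and FN1, TGFBI, COL6A3, TIMP1 and VIM downward. In another, alpha and beta lay on opposite sides of vector, as for TP73, KRT16, AKR1C2 and PLAU, which were highest with beta, and FOSL1, EGR1, DUSP6, AREG and LAMB3, which were highest with alpha. Alpha was the farther out on the same side of vector for LAMA3, NRG1, TGFA, JAG1 and DUSP7 upward and COL12A1 downward. For EGFR, FOLR3, MUC1 and CXCL1 the vector and beta libraries overlapped and the alpha libraries stood alone.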

How the data were processed

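RNA-seq of poly(A) RNA covered 9 MCF10A samples in 3 groups. The deposited signal values were treated as normalized estimated counts: they are not whole, and their sums are alike in every library. The submitters' processing notes name kallisto 0.46.2, GRCh38 and DESeq2 (no version). The notes do not tie the numbers to a step, and the annotation and strand setting are not given in the sources used here. Whole reads were not recovered: between 59.9% and 63.5% of low values were whole multiples of a library's step within 0.1 step. No interval for counting error was therefore computed.

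Of 41857 gene IDs, 17026 were at 0 in all 6 libraries compared and 14638 passed the minimum (10 in 3 libraries), 68 of them through the deltaNp63beta and 93 through the deltaNp63alpha libraries alone. Symbols matched 13652 of the tested IDs and GENCODE 29 positions 13409. A total of 508 tested IDs had values identical to another ID; with repeats counted once, 2445 of 14351 were higher and 2114 lower. Genes with overlapping or near-identical neighbours may share reads.

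Differences are log2(value + 1), deltaNp63beta minus deltaNp63alpha, fitted on these 6 libraries in limma 3.58.1 (R 4.3.3), its moderation set to trend and robust, with no covariate. Every adjusted p is limma's with Benjamini-Hochberg adjustment over all genes tested, and under 0.05 was called. The pseudocount shrinks fold changes of low genes. A ± after a log2 fold change is its SE, and after a mean its SD over 3 libraries. The script was tested on simulated data. The comparison, members and gene lists were chosen with earlier results of these data known, so no list has a test.

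Genes named are the 10 highest and 10 lowest log2 fold changes with a group mean of at least 50, and the 8 highest and 8 lowest with a mean of at least 2000, among called genes whose groups did not overlap; up to 5 members per list by smallest adjusted p, up to 3 in the other direction, and TP63, TP73, CDKN1A, SFN, ZNF750, KLF4, GRHL3, OVOL1, CDH1, VIM, ZEB1, EGFR and NOTCH1. Further list members were named after their values were seen, and some genes that the rule covers are not reported here. Alternatives changed the libraries fitted, scaling, minimum, pseudocount, moderation, weights, threshold, block and covariate, and left out each library. Promoters were searched in RefSeq's GRCh38.p14 table. Files were read and figures drawn in Python 3.11.15 (matplotlib 3.10.9, numpy 2.4.6, pandas 2.3.3).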

Additional observations from a re-analysis of the deposited data

How the results depend on the processing

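The number of genes called depended on what was tested. A test against 1.5-fold called 226 genes higher and 156 lower in place of 2480 and 2139, and of those at least 2-fold different 198 and 122 in place of 399 and 369. A minimum of 50 in 3 libraries left 206 genes at least 2-fold lower. Leaving out 1 library in turn gave 1853 to 2217 higher, 1522 to 2011 lower, 361 to 400 at least 2-fold higher and 246 to 532 at least 2-fold lower. Fits on all 9 libraries, other scalings (size factors, equal totals, quantiles), a minimum of 1, other pseudocounts, library weights, no trend or robust moderation and TP63 as a covariate kept these counts within 1.5 times. At an unadjusted p under 0.05 there were 6168 genes.

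TP63 was not called under any alternative run. Of the genes the rule and the lists named, 111 of 233 kept direction and call throughout; the others gave 254 values no longer past the threshold and 2 newly past it among 4421, and none changed sign. Replicate numbers are shared between the groups but did not pair the libraries, since residuals of equal numbers correlated at -0.03, 0.07 and -0.08. With the number as a block, 2287 genes were higher and 1956 lower, 390 and 347 of them at least 2-fold; OVOL1 was then called (adjusted p = 0.0361), ZEB1, KDR, CLDN12 and YAP1 were not (adjusted p = 0.0604 to 0.0793), and 5 retinoid and eicosanoid genes were lower in place of 3.

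Fold changes of genes at low values are limited by the step of about 1 and the pseudocount. With 3 libraries a group, log2 fold changes had a median SE of 0.105. Beta replicate 1 stood apart from the other beta libraries on the second principal component.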

Other observations

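Genes of the IGF, FGF and Wnt systems were called 7 higher and 7 lower of 29 tested of 37. Among them IGFL1 passed the minimum through the beta libraries alone and DKK3 through the alpha libraries alone, so a difference was built into their entry. Besides FGFBP1 and IGFL1, IGFBP7, a secreted IGF-binding protein, had values of 1478, 1419 and 1409 in the vector libraries, 1140.3, 1081 and 1156 in the alpha libraries and 2381, 2372 and 2305 in the beta libraries, lowest in the alpha and highest in the beta libraries (1.06 ± 0.06, adjusted p = 2.17e-06). PAPPA, the protease that cuts IGF-binding proteins, had values of 184, 149.8 and 147 in the vector libraries, 38.5, 35.9 and 23.5 in the alpha libraries and 99.2, 92.1 and 99.04 in the beta libraries, so that alpha was lowest and vector highest (beta against alpha 1.57 ± 0.24, adjusted p = 0.00128). SFRP1, a secreted Wnt antagonist, was higher by 0.31 ± 0.05 (adjusted p = 0.00122). DKK1, a Wnt antagonist that binds the coreceptor, had values of 6041, 5480.2 and 5437 in the vector libraries, 3089, 2599.9 and 2505 in the alpha libraries and 771, 893 and 683 in the beta libraries, a stepwise order downward with -1.81 ± 0.11 between alpha and beta (adjusted p = 5.72e-06). IGFBP6 was lower, at -0.59 ± 0.06, and so was WNT9A, at -1.46 ± 0.19 (adjusted p = 0.000137 and 0.000485).

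Retinoid and eicosanoid genes gave 5 higher and 3 lower of 22 tested of 28. ALOX15B, a lipoxygenase, had values of 1670.5, 1542 and 1486 in the vector libraries, 2003, 1799.6 and 1848 in the alpha libraries and 3501, 3434 and 3689 in the beta libraries, a stepwise order upward with 0.91 ± 0.06 between alpha and beta (adjusted p = 7.41e-06). LTA4H, which makes leukotriene B4, was higher by 0.67 ± 0.05 and the prostaglandin E synthase PTGES by 0.48 ± 0.06 (adjusted p = 1.37e-05 and 0.000403). The leukotriene receptor LTB4R was higher by 0.65 ± 0.17 (adjusted p = 0.0174), a call lost without alpha replicate 1 or 3 or beta replicate 1 (adjusted p = 0.0535 to 0.0583), and its values equal those of another gene ID. ALOX5AP, which presents substrate to 5-lipoxygenase, had values of 217, 182 and 190.2 in the vector libraries, 56.2, 61.6 and 43.8 in the alpha libraries and 21.5, 8.19 and 7.81 in the beta libraries, stepwise downward (-2.15 ± 0.42, adjusted p = 0.0044). The retinoic acid receptor RARA was lower, at -0.63 ± 0.10 (adjusted p = 0.00192), while LRAT, which esterifies retinol, was higher by 0.80 ± 0.19 (adjusted p = 0.0104). The prostaglandin receptor PTGER4 was lower, at -0.81 ± 0.24 (adjusted p = 0.0283), a call lost without alpha replicate 1, 2 or 3 or beta replicate 1 (adjusted p = 0.0546 to 0.101).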
